A study of Mus musculus with 2 samples.

Results

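The genes described here are the chemokines and their receptors, read in the aortic wall of apoE-/- mice as the ratio of the atherosclerosis-prone arch to the resistant thoracic aorta. They were found by name: each gene probe whose symbol, in the scanner tables or in current use, begins with Ccl, Cxcl, Cx3cl, Xcl, Ccr, Cxcr, Cx3cr, Xcr or Ccrl followed by a digit. That gave 58 genes on 75 probes, 37 of them ligands and 21 receptors, of 28655 genes on the array. Among them 3 are members only by the name in the tables (Pf4 as Cxcl4, Ppbp as Cxcl7 and Ackr4 as Ccrl1) and 6 only by their current symbol.

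Each pool held RNA of 6 apoE-/- mice, 3 males and 3 females aged 16 weeks, which lack apolipoprotein E. The arch pool covered the aortic root, the arch and the adjoining 2 mm of thoracic aorta, and the thoracic pool the 6 mm beyond. All vessels had been perfused with triton X-100, a detergent used here against the endothelium, and no wild-type group is analysed here. Both pools were hybridised on each of 2 two-colour arrays, with the arch in Cy3 on array 1 and in Cy5 on array 2. There is 1 pool per segment, so the arrays repeat 1 measurement: each ± is the SD between the 2 arrays (n = 2, technical), mice were not measured apart, and no test was possible.

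Chemokines are small secreted proteins that direct the migration of leukocytes. They act through receptors that span the membrane and couple to inhibitory G proteins, and the families are named after the spacing of the leading cysteines (CC, CXC, CX3C and C). In atherosclerosis they are best known for drawing monocytes into the wall, through Ccl2 and its receptor Ccr2 and through Cx3cl1 and its receptor Cx3cr1.

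Of the 58 genes, 48 had a probe well above background in at least 1 pool on both arrays, by the scanner software's flag, and could be compared (29 ligands and 19 receptors). Of these, 46 passed that flag in both pools, and 0 sat on a saturated probe. The remaining 10 were in no pool well above background on both arrays. They were the ligands Ccl1, Ccl22, Cxcl2, Cxcl3, Cxcl11, Cxcl15, Cxcl17 and Xcl1, and the receptors Cxcr1 and Ccr10. Among them, Cxcl2 and Ccr10 passed the flag in the arch pool on array 1 and the thoracic pool on array 2. Ccl1, Cxcl15 and Cxcr1 passed it in the thoracic pool on array 2 only. Over the arrays, 76.5% to 82.6% of gene spots were well above background, and median signals lay between 132.4 and 142.2. The labels name smooth muscle cells as the aim of the study. All 9 smooth muscle markers were well above background in both pools, with 3 of them (Acta2, Tagln and Myl9) saturated. All 11 endothelial and all 15 macrophage markers were well above background in both pools too.

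In the main setting ligands spanned a wider range than receptors, in both directions. The log2 ratio of arch over thoracic ran from -0.83 to 0.97 over the ligands and from -0.19 to 0.40 over the receptors. This setting adds an offset of 50 to each signal, which narrows the ratios of dim probes, and most receptors were dim. Without the offset, receptors ran from -0.36 (Cxcr5) to 0.62 (Cxcr6) and ligands from -0.90 (Ccl21c) to 1.79 (Cxcl5). The 1.5-fold rule asked for a mean log2 ratio of 0.585 or more either way, and for 1.2-fold or more that way on both arrays. By this rule the ligands Ppbp and Cxcl9 were higher in the arch, against 1.4% of the 22811 genes compared. The ligands Ccl21c and Ccl24 were higher in the thoracic pool, against 0.456% of all genes. By the 2-fold rule, which asked for 1.5-fold on both arrays, 0 members were called either way (0.473% and 0.145% of all genes). The median was -0.04 over the ligands and -0.07 over the receptors, beside -0.01 over all genes compared, and the ligand median was 0.03 with array 2 left out. Of the 48 members 20 lay above 0, against 47.3% of all genes. The ratio had the same sign on both arrays in 40 of the 48 members, a share of 83.3%, and in 67.6% of all genes. The median SD between arrays was 0.05 over the members and 0.06 over all genes.

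**Figure D1:**
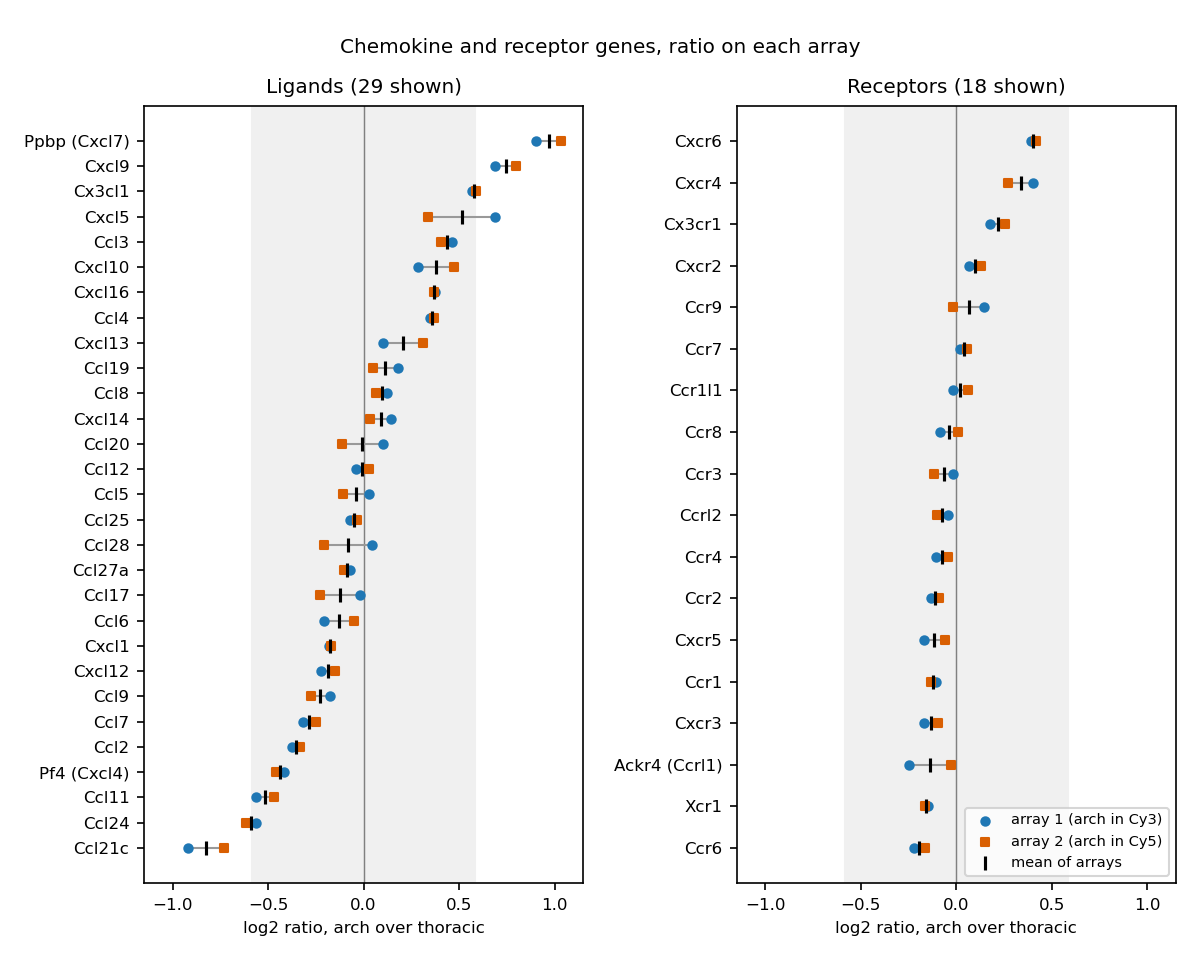
The log2 ratio of arch over thoracic of the 29 ligands (left) and 18 of the receptors (right) that could be compared, on array 1 (circles), on array 2 (squares) and as their mean (bars), with differences under 1.5-fold shaded. Ppbp and Cxcl9 lie right of the shaded band and Ccl21c and Ccl24 left of it, while all receptors shown lie inside it.

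**Figure D2:**
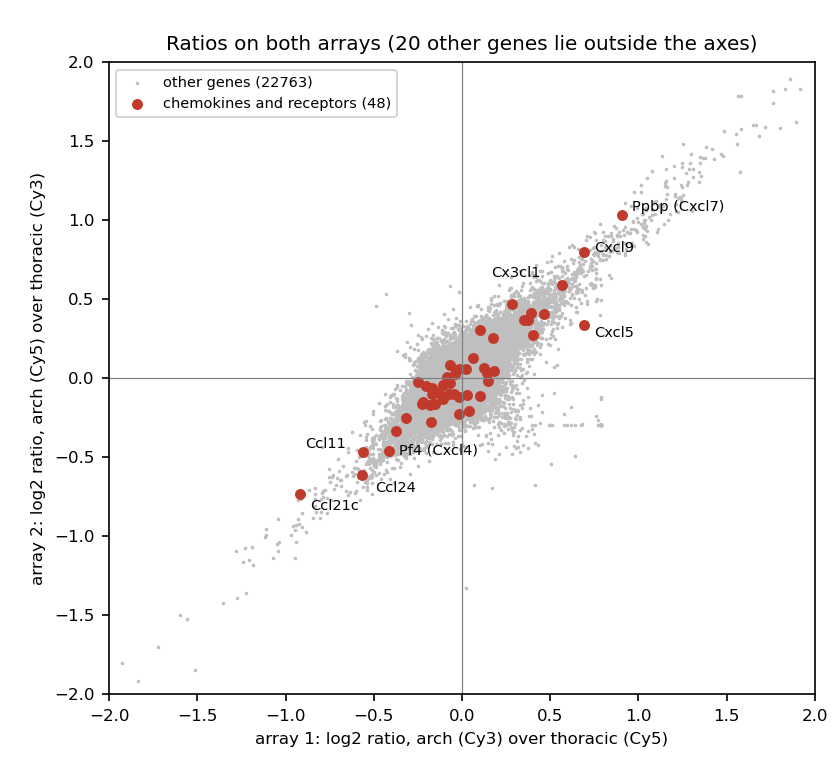
The log2 ratio on array 2 against that on array 1, for 48 chemokine and receptor genes (large points) and 22763 other genes (small points), 20 of which lie outside the axes at 2. The named members lie near the diagonal, apart from Cxcl5 with 0.69 on array 1 and 0.34 on array 2.

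In the main setting the largest ratio in size among the members was that of Ppbp, listed on the array as Cxcl7, the precursor of platelet basic protein, which is stored in platelet granules and attracts neutrophils through Cxcr2. Its normalised signal was 737 and 815 in the arch pool on arrays 1 and 2, and 393 and 398 in the thoracic pool. The arch values lay above the thoracic values on both arrays, at a log2 ratio of 0.97 ± 0.09. Without the offset of 50 that the main setting adds to each signal, Cxcl5 (1.79) and Cxcl9 (1.40) exceeded Ppbp (1.06). The offset narrows the ratios of dim probes. In the deposited log ratio the order was the same (1.75, 1.51 and 1.07). The thoracic signal of Cxcl5 was not well above background on array 1, so its ratio divides by a level close to background. Pf4, listed as Cxcl4, is platelet factor 4, another granule chemokine, which mouse macrophages can also make. Its signal was 8585 and 8457 in the arch pool and 11444 and 11616 in the thoracic pool. Here the thoracic values were the higher on both arrays, at -0.44 ± 0.03, which is under 1.5-fold. Ppbp and Pf4 lay in opposite directions. They are neighbours in the genome and share platelets as a known source.

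Their promoters are shown because the 2 neighbouring genes differed in direction. The sequences are the 250 bases before the annotated start in RefSeq (GRCm38.p6), 5′ to 3′ on the strand of the gene. Capitals mark matches, on either strand, to 3 motifs: the interferon-stimulated response element (ISRE, GAAA and again GAAA after a gap of 2 bases), the NF-kB site and the TATA box (TATAAA). No marked matches overlap in the promoters printed here.
Ppbp, chr5:90768268-90768517, plus strand: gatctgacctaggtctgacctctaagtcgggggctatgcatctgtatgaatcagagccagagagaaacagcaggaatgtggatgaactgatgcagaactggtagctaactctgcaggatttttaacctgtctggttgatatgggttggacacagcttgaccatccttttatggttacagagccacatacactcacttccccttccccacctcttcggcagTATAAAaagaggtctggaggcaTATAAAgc
Pf4, chr5:90772185-90772434, plus strand: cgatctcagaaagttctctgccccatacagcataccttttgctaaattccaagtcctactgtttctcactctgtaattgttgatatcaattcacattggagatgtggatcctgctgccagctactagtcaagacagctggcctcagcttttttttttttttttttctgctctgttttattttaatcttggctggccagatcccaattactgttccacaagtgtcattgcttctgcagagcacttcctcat
Ppbp has TATAAA at -30 and at -8, counted from the start, and Pf4 has no match to any of the 3 motifs. TATAAA is found in 12.4% of 32851 mouse promoters of this length. A match shows only that these letters are present.

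Markers of platelets, a list of 10 genes chosen after these 2 values were seen, were in part higher in the arch. Of the 10, Tubb1 was not compared. Of the other 9, 1 was called at 1.5-fold, Clec1b, a platelet receptor (1.23 ± 0.01), against 1.4% of all genes. In all, 7 of the 9 lay above 0, with a median of 0.19. Gp9, a subunit of the platelet receptor for von Willebrand factor, stood at 0.56 ± 0.02 and Treml1 at 0.53 ± 0.07, while Itga2b, the platelet integrin, was at 0.21 ± 0.02 and Gp1bb at -0.06 ± 0.01. The summed signal of the list was 1756 and 1745 in the arch pool against 1244 and 1238 in the thoracic pool. Their part in the Ppbp difference was not tested. In pooled tissue, more cells of a type and more RNA per cell cannot be told apart, here and below.

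Both measured ligands of Cxcr3, a receptor of activated T cells, lay above 0, and Cxcl9 was called higher in the arch. These ligands are made in response to interferons. Cxcl9 had signals of 137 and 150 in the arch pool and of 85.1 and 86.0 in the thoracic pool, at 0.74 ± 0.08. Cxcl10 had 100.5 and 106 in the arch pool and 82.5 and 76.3 in the thoracic pool, at 0.38 ± 0.13, and was not called. The arch values were the higher for both genes on both arrays, but all lay within a range where the offset added to dim signals narrows ratios. In the log ratio the authors deposited, which carries no such offset, Cxcl9 stood at 1.51 and Cxcl10 at 0.97. Cxcl11, the other ligand of this receptor, was not well above background. Cxcr3 itself stood at -0.13 ± 0.05. Of the T and NK cell markers, 10 could be compared. Against 1.4% of all genes, 1 of them was called higher in the arch, the interleukin receptor gene Il7r (1.12 ± 0.15). Their median was 0.02, with Cd3e at -0.01 and Cd8a at -0.01, and their summed signals were 1484 and 1616 in the arch pool and 1385 and 1440 in the thoracic pool. The part of these cells in the Cxcl9 difference was not tested.

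The promoters of Cxcl9 and Cxcl10, shown because these neighbours differed in the same direction, have their matches in capitals as above.
Cxcl9, chr5:92328080-92328329, minus strand: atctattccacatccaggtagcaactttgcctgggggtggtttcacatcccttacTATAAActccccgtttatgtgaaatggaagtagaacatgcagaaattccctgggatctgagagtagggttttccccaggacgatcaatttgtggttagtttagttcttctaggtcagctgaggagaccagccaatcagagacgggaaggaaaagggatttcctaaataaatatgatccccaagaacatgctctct
Cxcl10, chr5:92348890-92349139, minus strand: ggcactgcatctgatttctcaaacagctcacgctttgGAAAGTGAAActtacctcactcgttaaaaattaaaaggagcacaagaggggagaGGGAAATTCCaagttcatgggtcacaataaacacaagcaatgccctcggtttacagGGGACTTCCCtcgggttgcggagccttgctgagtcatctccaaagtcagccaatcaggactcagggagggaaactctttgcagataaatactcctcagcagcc
Cxcl10 has an ISRE at -213 and NF-kB matches at -159 and -103, and Cxcl9 has only TATAAA at -195. Of the members, 43 were found in the promoter table, but not Ccl21c and Ccl24, which were called higher in the thoracic pool. These 43 had 49 promoters. NF-kB matches were present in 18.4% of these, against 3.9% of all promoters, and ISRE matches in 6.12% against 2.98%. The members with an NF-kB match were Ccl9, Ccl20, Cxcl1, Cxcl2, Cxcl3, Cxcl10, Ccr3, Ccr6 and Ccrl2. Of these, 7 could be compared and 0 were called (1.4% of all genes higher in the arch, 0.456% in the thoracic pool). With shares this small, 0 of 7 is not read as a result about NF-kB sites. Cxcl10 lay above 0 on both arrays, Ccl20 (-0.01 ± 0.15) had opposite signs, and the other 5 lay below 0 on both: Ccl9 (-0.23 ± 0.07), Ccr6 (-0.19 ± 0.04), Cxcl1 (-0.17 ± 0.01), Ccrl2 (-0.07 ± 0.04) and Ccr3 (-0.07 ± 0.07).

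Cx3cl1, fractalkine, is a ligand anchored to the membrane of endothelium and other cells that captures monocytes. Its signal was 647 and 642 in the arch pool and 437 and 427 in the thoracic pool. The arch values were higher on both arrays at 0.58 ± 0.02, just under the 1.5-fold limit, and a further probe was not well above background. Its receptor Cx3cr1, found on monocytes and macrophages, had 118 and 121 in the arch pool and 105 and 101 in the thoracic pool. The ratio was 0.22 ± 0.06, and a further probe gave -0.03. The endothelial markers, whose cells the perfusion was aimed at, went the same way. All 11 lay above 0, 4 were called at 1.5-fold (Kdr, Vwf, Emcn and Ptprb, against 1.4% of all genes), and their median was 0.52. Their summed signals were 2846 and 2804 in the arch pool and 1837 and 1818 in the thoracic pool. Their part in the Cx3cl1 difference was not tested.

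Cxcl16, a scavenger receptor for oxidised lipoprotein in its membrane form and a chemokine when shed, stood at 0.37 ± 0.00. Its signal was 624 and 679 in the arch pool and 482 and 527 in the thoracic pool, with the arch higher on both arrays. A further Cxcl16 probe gave 0.05, with opposite signs on the 2 arrays. Its receptor Cxcr6, a receptor of T and NK cells, had the largest ratio of the receptors, 0.40 ± 0.02. Cxcr6 had signals of 163 and 165 in the arch pool and 124 and 124 in the thoracic pool. By the brighter Cxcl16 probe, ligand and receptor lay in the same direction, both under 1.5-fold.

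Besides Ppbp, described above, the array holds 5 ligands known for attracting neutrophils, of which 2 could be compared. In no pool were Cxcl2, Cxcl3 and Cxcl15 well above background on both arrays. Cxcl5, a neutrophil attractant of stimulated epithelium and other cells, had signals of 90.7 and 94.5 in the arch pool and 56.2 and 74.7 in the thoracic pool, at 0.51 ± 0.25, the largest SD among the members. Its thoracic signal was well above background on array 2 only, and the deposited log ratio was 1.75. Cxcl1, a related ligand, lay the other way at -0.17 ± 0.01. Cxcr2, the receptor of these ligands and of Ppbp, was well above background in the arch pool alone. Its signals lay close to background, 67.8 and 69.3 in the arch pool and 64.8 and 63.5 in the thoracic pool. The ratio was 0.10 ± 0.04, against a thoracic level that is only a bound, so no difference is read from it. A further probe was not well above background in either pool. Neutrophil markers had a median of 0.25 over the 5 genes compared, and 0 were called, beside 1.4% of all genes called higher in the arch.

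The CC ligands that attract monocytes and T cells were split. Ccl3 and Ccl4, products of activated macrophages and lymphocytes, were the 2 highest of the 9. Ccl3 had 187 and 186 in the arch pool and 136 and 140.2 in the thoracic pool, at 0.43 ± 0.04. Ccl4 had 151 and 146 in the arch pool and 118 and 113 in the thoracic pool, at 0.36 ± 0.02. The arch was higher on both arrays for each, under the 1.5-fold limit. Ccl2, the main monocyte attractant of the family, lay the other way: its signal was 899 and 861 in the arch pool and 1164 and 1084 in the thoracic pool. Its ratio was -0.35 ± 0.03, with the thoracic values higher on both arrays. Ccl7, a close relative that shares the receptor Ccr2, was at -0.28 ± 0.05, and its further probe gave -0.20. Ccl9 stood at -0.23 ± 0.07 and Ccl6 at -0.13 ± 0.11, both CC ligands of mouse myeloid cells. The other 3 lay near 0: Ccl8 at 0.09 ± 0.04, Ccl12 at -0.01 ± 0.05 and Ccl5 at -0.04 ± 0.10, whose further probe gave -0.04. Over the 9 genes the median was -0.04, with 0 called.

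The receptors described for these ligands had ratios near 0. Ccr2, which marks inflammatory monocytes, had signals of 588 and 592 in the arch pool and 645 and 632 in the thoracic pool, at -0.11 ± 0.03. Ccr1 stood at -0.12 ± 0.02 and its homologue Ccr1l1 at 0.02 ± 0.05. Macrophage markers beside them went both ways. Of 15, 4 were called at 1.5-fold and all 4 were higher in the arch, against 1.4% of all genes. These were Cd5l (4.09 ± 0.13), Gpnmb (2.34 ± 0.14), Lgals3 (1.65 ± 0.09) and Mpeg1 (1.33 ± 0.05). Adgre1, the F4/80 antigen, stood at -0.06 ± 0.01, Csf1r at 0.07 ± 0.09, Mrc1 at 0.01 ± 0.02, Cd163 at -0.27 ± 0.02 and Lyve1, a hyaluronan receptor of lymphatic endothelium and some resident macrophages, at -0.58 ± 0.00. Cd68 (0.51 ± 0.07) and Fcgr1 (0.27 ± 0.03), also not called, lay above 0 on both arrays. In all, 10 of the 15 markers lay above 0 and 5 below, with a median of 0.07. Summed signals were 118740 and 88341 in the arch pool and 68057 and 79051 in the thoracic pool, with Lyz2 on a saturated probe. The part of these cells in the chemokine ratios was not tested.

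Of the 2 eotaxins measured, ligands of the eosinophil receptor Ccr3, Ccl24 was called higher in the thoracic pool and Ccl11 was not called in any of the 10 settings. Ccl24, eotaxin-2, had signals of 1016 and 979 in the arch pool and 1502 and 1499 in the thoracic pool, at -0.59 ± 0.04, and its further probe gave -0.55. It was called by a narrow margin: with array 2 left out its ratio of -0.57 missed the limit. Ccl11, eotaxin-1, which vascular smooth muscle can make, had 2599 and 2727 in the arch pool and 3835 and 3775 in the thoracic pool, at -0.52 ± 0.06. For both genes all thoracic values lay above all arch values, and the Ccl11 ratio was under 1.5-fold. Ccr3 stood at -0.07 ± 0.07, with a further probe at -0.02. Of the 4 eosinophil markers, Prg2, Epx and Siglecf were not well above background, and Ear1 stood at -0.07 ± 0.00. Ccl17, a ligand of the T cell receptor Ccr4, was at -0.12 ± 0.15 and Ccr4 at -0.08 ± 0.04.

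**Figure D3:**
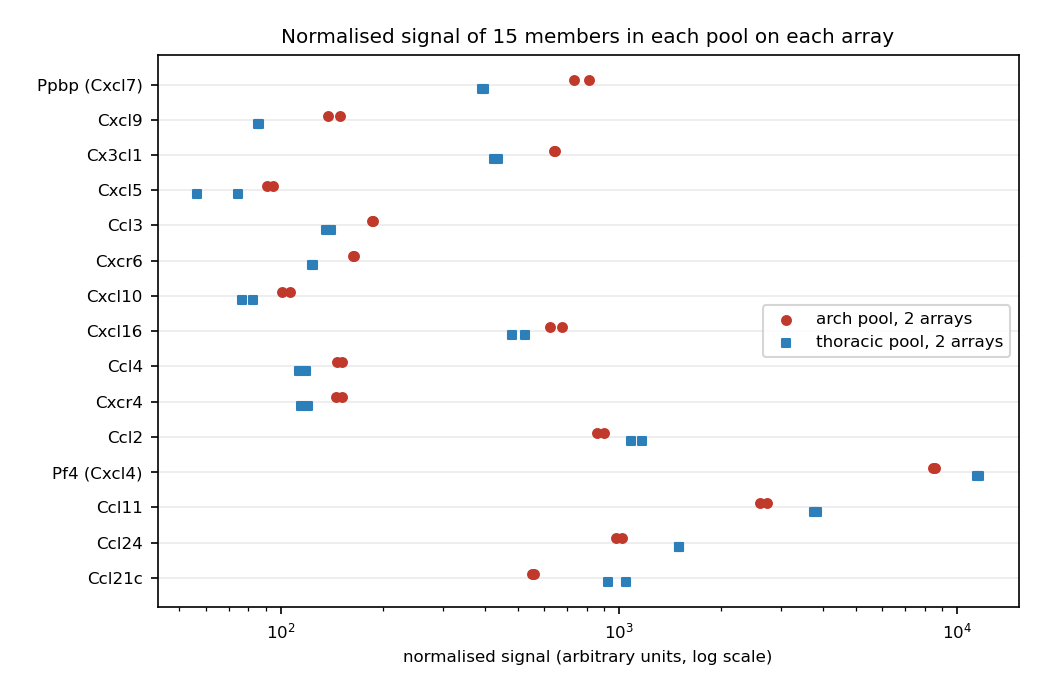
The normalised signal (arbitrary units, log scale) of 15 members in the arch pool (circles) and the thoracic pool (squares), with a point for each of the 2 arrays. The 15 are the members with the largest ratios in size, so the lack of overlap between their pools follows in part from that choice. The gap is widest for Ppbp, 737 and 815 against 393 and 398.

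Of the ligands that position cells in lymphoid tissue, Ccl21c was the lowest member of all. Ccl21 is made by lymphatic endothelium and lymph node stroma and guides dendritic cells and T cells through Ccr7. The probe gave 551 and 559 in the arch pool and 1044 and 928 in the thoracic pool, at a log2 ratio of -0.83 ± 0.14. The mouse genome holds near-identical Ccl21 genes, and the copy behind this signal is not known. Ccl19, the other ligand of Ccr7, was bright and close between the pools, with 9532 and 8716 in the arch and 8416 and 8423 in the thoracic pool, at 0.11 ± 0.09 (further probe 0.10). Without loess the Ccl19 ratio turned to -0.03. Ccr7 stood at 0.04 ± 0.03. Of the markers of lymphatic endothelium, Lyve1 lay at -0.58 ± 0.00 while Prox1 (-0.05 ± 0.21), Flt4 (0.08 ± 0.17) and Pdpn (-0.10 ± 0.01) were near 0. The summed signals of those 4 were 2038 and 1968 in the arch pool and 2809 and 2764 in the thoracic pool, and their part in the Ccl21c difference was not tested.

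Cxcl12, made by stromal and smooth muscle cells and a ligand that retains leukocytes and progenitors, lay below 0 and was not called. Its brighter probe, designed on another transcript record than its further probe, gave 4294 and 4418 in the arch pool and 5015 and 4900.0 in the thoracic pool, at -0.19 ± 0.05. The other probe gave -0.33 ± 0.02. Its signalling receptor Cxcr4 lay the other way, with 151 and 145 in the arch pool and 114 and 120.1 in the thoracic pool. The ratio of Cxcr4 was 0.34 ± 0.09, and a further probe gave 0.04. Ackr3, an atypical receptor that takes up Cxcl12 and is no member by its name, was higher in the arch at 0.67 ± 0.01 and was called at 1.5-fold. Cxcl13, which attracts B cells, stood at 0.20 ± 0.15 and its receptor Cxcr5 at -0.12 ± 0.08. The 6 B cell markers had a median of -0.13.

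The remaining members lay within 0.20 of 0. Among ligands these were Cxcl14 (0.09 ± 0.08), Ccl20 (-0.01 ± 0.15), Ccl25 (-0.05 ± 0.03, further probe 0.02), Ccl27a (-0.09 ± 0.02, a gene that also has near-identical copies) and Ccl28 (-0.08 ± 0.18). Among receptors, Ccr6, the receptor of Ccl20, had the lowest value, -0.19 ± 0.04. Xcr1, a receptor of cross-presenting dendritic cells, stood at -0.16 ± 0.01, Ackr4, which clears Ccl19 and Ccl21, at -0.14 ± 0.16 (further probe -0.17), and Ccrl2 at -0.07 ± 0.04 (further probe -0.09). Ccr9, the receptor of Ccl25, was at 0.06 ± 0.11 and Ccr8 at -0.04 ± 0.06. In 10 of the 12 members with a further probe above background, all probes had the same sign. Cx3cr1 and Ccl25 were the exceptions.

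Genes of a chemokine cluster did not all share a direction. In the RefSeq table, runs of members lie less than 500000 bases apart from start to start. The run Ccl2, Ccl7, Ccl11, Ccl12, Ccl8 and Ccl1 had 5 genes compared, 4 of them below 0, with ratios from -0.52 to 0.09 and a median of -0.28. The run Ccl5, Ccl9, Ccl6, Ccl3 and Ccl4 ranged from -0.23 to 0.43. The run of Cxcl5, Ppbp, Pf4, Cxcl3, Cxcl15, Cxcl1 and Cxcl2 had the widest spread, from -0.44 to 0.97 over 4 genes compared. The largest receptor run, of 8 genes, ran from -0.16 in Xcr1 to 0.40 in Cxcr6, with 4 above 0 and 4 below. Of those above 0, Cxcr6 was so on both arrays, while Ccr9 and Ccr1l1 had opposite signs on the 2 arrays. The 4 below, Xcr1, Ccr1, Ccr2 and Ccr3, were below 0 on both arrays.

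Of the other genes of the pathway, listed by role, 4 were called at 1.5-fold, each of them higher in the arch. Over all genes compared, 1.4% were called higher in the arch and 0.456% in the thoracic pool. Of 14 atypical receptors and related attractants 1 was called, Ackr3, and the median was 0.12. In that list Rarres2, chemerin, stood at 0.36 ± 0.00, Ackr2, which scavenges inflammatory CC ligands, at 0.35 ± 0.03 and Ltb4r1, a leukotriene receptor, at -0.33 ± 0.08. Of 39 genes of signalling after the receptor 1 was called, Rgs1, which dampens G protein signals in leukocytes (0.86 ± 0.04), and the median was 0.07. Of 15 genes of matrix binding and cleavage 2 were called: Dpp4, a protease that trims and inactivates several chemokines (0.84 ± 0.04), and Mmp2, a gelatinase that also cleaves chemokines (0.64 ± 0.10). Their median was 0.10. Of 22 inducers 0 were called and 14 lay above 0, with a median of 0.13. Stat2 stood at 0.41 ± 0.01, Nfkb1 at 0.38 ± 0.05, Irf8 at 0.36 ± 0.01 and Irf7 at 0.31 ± 0.06, whereas Il1r1, the interleukin-1 receptor, was at -0.52 ± 0.00.

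The pools also differed in markers of other tissues. All 6 markers of mesothelium were called higher in the arch, with a median of 1.43 and summed signals of 6213 and 5907 against 2246 and 2172. So were 4 of 9 adventitial fibroblast markers (median 0.44), 3 of 5 of heart muscle (1.41) and 2 of 5 of brown fat (0.55). Over all genes compared, 1.4% were called higher in the arch at 1.5-fold. The smooth muscle list had 0 of 9 called and a median of 0.15. Mast cell markers had a median of -0.10 over 6 genes and dendritic cell markers one of -0.17 over 3, with 0 called in either. The part of these tissues in the ratios of the chemokines was not tested.

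The treatment of background moved several dim members, and leaving out loess moved several bright ones. Without loess Pf4 stood at -0.59, Ccl11 at -0.60, Cxcl12 at -0.29 and Ccl6 at -0.25, and none of these was called. Without the offset 7 members were called higher in the arch and 2 in the thoracic pool, and in the deposited log ratio 8 and 2, against 2 and 2 in the main setting. Cxcl5 reached 1.79 without the offset, Ccl3 0.63 and Cxcr6, the only receptor called in these settings, 0.62. The shares of all genes moved with them: 2.58% and 2.94% were then called higher in the arch, against 1.4%, and 0.956% and 1.08% higher in the thoracic pool, against 0.456%. By the 2-fold rule Cxcl5, Cxcl9 and Ppbp were called in both settings (0.859% and 1.02% of all genes). Cxcl5 passed the filter through the arch pool only. Its thoracic signal was well above background on array 2 alone, so its ratio divides by a level close to background. Ppbp and Ccl21c were called at 1.5-fold in all 10 settings, from 0.91 to 1.07 and from -0.92 to -0.73. Cxcl9 was called in 9 and missed the limit without background subtraction (0.58). Ppbp, Ccl21c and Cxcl9 each have a single unsaturated probe that passes the filter. For them the settings on filter, probe choice and saturation could only return the main value. Ccl24 was called in 7, with values from -0.62 to -0.57, and missed the limit without background subtraction, with the median over probes and without array 2.

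**Figure D4:**
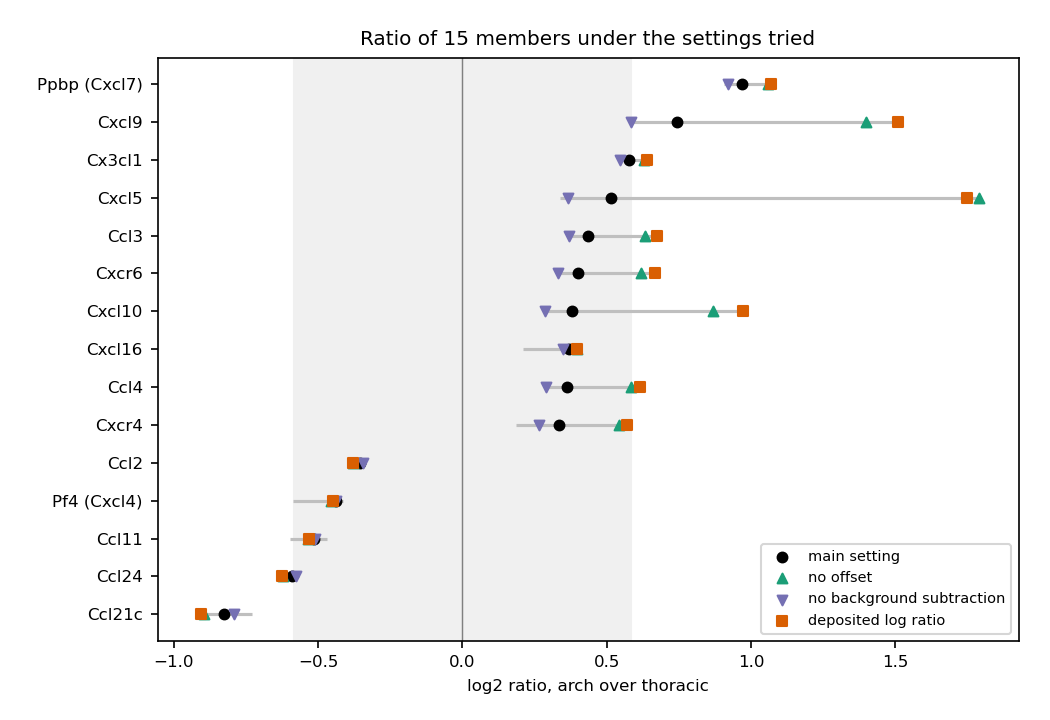
The log2 ratio of arch over thoracic of 15 members in the main setting (circles), without the offset (upward triangles), without background subtraction (downward triangles) and in the deposited log ratio (squares), with a line over the whole range of the 10 settings and differences under 1.5-fold shaded. The dim genes Cxcl5, Cxcl9 and Cxcl10 move most, and none of the 15 crosses 0.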

How the data were processed

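The deposited scanner tables hold intensity values, the mean signal of each dye and the median local background per spot, without normalization, and per the file headers Agilent's Feature Extraction 8.1.1.1 made them (the submitters' processing notes name 9.1.1.1). The tables' deposited log ratio (log10, red divided by green) uses signals in which the software had already subtracted background and normalized the dyes, per the file headers. The deposited table of the whole series repeats it, turned to arch over thoracic (99.9% of rows within 0.001). The build behind the probes was not given in the sources.

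Signals were corrected with limma 3.58.1 in R 4.3.3 (normexp, offset 50, which narrows ratios of dim probes) and normalized by loess. Outlier spots were left out, array 1 was turned and the arrays were averaged. Printed signals were also scaled between arrays (Aquantile). The brightest probe well above background stood for its gene: 32176 of 41174 probes and 22811 genes remained. Names came from RefSeq GRCm38.p6 (69 of 75 member probes by accession). All members past the 1.5-fold rule and the best-known others are given in full. The members and lists were chosen with earlier results of these data known. The values of 1 receptor and of 1 further motif are not reported here. The steps were tested on simulated data with changes of 2-fold or more in the brighter probes only, so smaller or dim ratios were not covered. Alternatives changed background, normalization, filter, probe choice and arrays.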

Additional observations from a re-analysis of the deposited data

How the results depend on the processing

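Of 54 counts and medians under 9 alternatives, 41 stayed within 1.5 times the main count or within the SD between arrays. Leaving out saturated probes could not move any of them, as no member sat on a saturated probe. Of 432 ratios of single members none that was called changed sign. The members called higher in the arch at 1.5-fold numbered 2 in the main setting, 7 without the offset, 8 in the deposited log ratio and 1 without background subtraction; at 2-fold they numbered 0, and 3 without the offset and in the deposited log ratio. Those called higher in the thoracic pool at 1.5-fold numbered 2, and 1 without background subtraction and with the median over probes. The receptor median of -0.07 was -0.10 without the offset and -0.11 in the deposited log ratio.

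With either array left out, 3 members were higher in the arch at 1.5-fold and 0 to 1 at 2-fold (Ppbp without array 1, 1.03), and 1 to 2 were higher in the thoracic pool at 1.5-fold. Without array 1 the median log2 ratio was -0.0495 over the ligands and -0.0258 over the receptors, and without array 2 it was 0.0304 and -0.066. The sign of 9 members changed in some setting, each of them at most 0.11 in size in the main setting. No paired analysis was possible because each array holds the same 2 pools and the ratio is taken within it; slide as a block was not run for the same reason. Precision is limited by having 2 arrays and, for dim probes, by signals close to background.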
